A study of Mus musculus with 12 samples.

Results

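Luminal secretory cells, also called alveolar or luminal progenitor cells, were examined in the mammary glands of tumor-bearing mice. A gland cell was chosen by its own UMI counts, a UMI being a tag that counts each captured RNA molecule once. It had to hold at least 1 UMI of Epcam, at least 4 UMIs summed over 7 secretory-lineage genes (Plet1, Ltf, Muc15, Elf5, Kit, Aldh1a3 and Lcn2), and more than 2 times the sum over 7 hormone-sensing genes (Prlr, Ptn, Fgb, Tph1, Pcp4, Cited1 and Ly6a). This gate took 1336 of the 3153 gland cells, out of 21157 cells in all 12 libraries. The remaining 1817 gland cells served as the comparison, and within them 1117 hormone-sensing cells were taken by the mirror image of the gate.

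The mammary epithelium has an inner luminal layer and an outer contractile basal layer. Luminal cells fall into hormone-sensing cells, which carry the estrogen and progesterone receptors and signal to their neighbours, and secretory-lineage cells, which lack those receptors, contain the luminal progenitors and give rise to the milk-producing alveoli of pregnancy. The secretory lineage depends on the ETS factor Elf5 and on prolactin signalling through Stat5, makes caseins and whey proteins, and secretes antimicrobial proteins into the duct. Luminal progenitors are widely regarded as the cells of origin of BRCA1-deficient breast cancers.

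Both donor mice, 2 in number, were MMTV-Cre; Brca1flox/flox on a strain labelled C57BL/6 and 129/Sv mixed, in which Cre recombinase is driven by a viral promoter active in mammary epithelium and both Brca1 alleles are floxed. There was no Brca1 wild-type group, so every comparison below lies within Brca1-deficient mice. From each mouse the fourth pair of glands was dissociated, depleted of blood and endothelial cells to enrich epithelium, and run by Drop-seq, a droplet method that reads the 3′ end of RNA, giving 2 libraries from the first mouse (MG1) and 2 from the second (MG2). The methods describe the gland donors of the study as young adult females, virgin or in mid-pregnancy, but neither they nor the labels say which applied to these 2 tumor-bearing mice. Libraries of 1 mouse repeat the preparation and not the animal, so p-values measure the spread between libraries, and the mouse and its library batch cannot be told apart.

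Luminal secretory cells numbered 270 of 713 gland cells in MG1 replicate 1 (37.9%, exact 95% interval 34.3 to 41.5), 38 of 105 in MG1 replicate 2 (36.2%, 27.0 to 46.1), 530 of 1183 in MG2 replicate 1 (44.8%, 41.9 to 47.7) and 498 of 1152 in MG2 replicate 2 (43.2%, 40.3 to 46.1). Intervals cover counting error only, and an exact two-sided permutation test of 2 against 2 libraries cannot go below p = 0.333, so the shares were not tested between the mice. The summed secretory cells of a library held between 240544 and 2193249 UMIs, and the smallest sum came from MG1 replicate 2. Median depth per secretory cell was 3298, 4672, 2522 and 2574 UMIs in that order of libraries, against 3356, 4879, 2460 and 2309 UMIs in the other gland cells. Cells were therefore of similar depth inside and outside the gate.

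The gate genes describe the cells and carry no test. Lcn2, an iron-sequestering antimicrobial protein, supplied 40.4 to 52.2% of the gate UMIs of a library, and Plet1, a surface protein of luminal progenitors, supplied 35.9 to 47.6%. Lcn2 was seen in 98.7 to 100% of secretory cells and Plet1 in 92.1 to 100%. The lower-level members were seen in fewer cells at this depth: Kit, the receptor of stem cell factor, in 20.4 to 28.1%, Elf5 in 15.6 to 26.3%, and Aldh1a3, a retinaldehyde dehydrogenase, in 6.04 to 18.4%. Aldh1a3 stood at 109 and 80.8 CPM (UMIs of the summed cells scaled to a common library total) in the 2 MG1 sums and at 41.5 and 59.5 CPM in the 2 MG2 sums. The median gate sum per cell was 32, 38, 23 and 26 UMIs, far above the threshold. Just inside it, 3, 0, 11 and 7 cells had a sum of 4, and just outside it, 6, 1, 12 and 11 cells with Epcam met the ratio with a sum of 3.

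**Figure D1:**
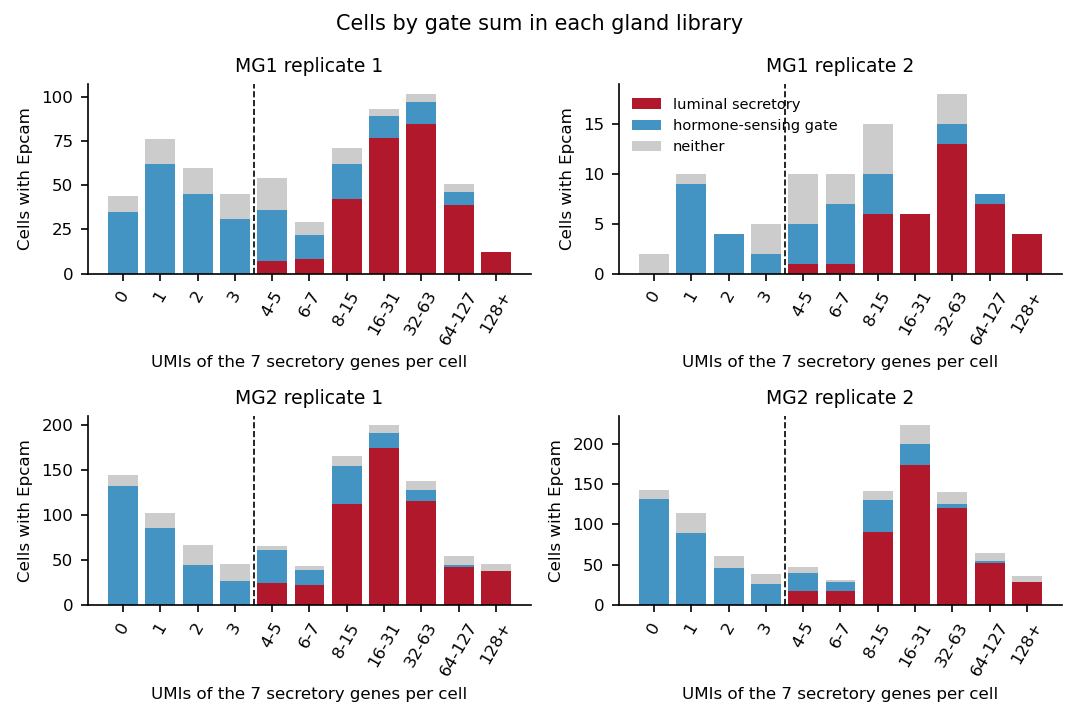
Number of gland cells with Epcam (vertical axis) by their UMI sum over the 7 secretory genes (horizontal axis, binned), in each gland library. Red bars are luminal secretory cells, blue bars hormone-sensing cells, grey bars cells of neither gate, and the dashed line is the threshold of 4 UMIs; most secretory cells lie at 8 or more UMIs.

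The label was checked against 8 markers of the secretory lineage that the gate did not use. Relative to the other gland cells, 6 of the 8 were higher (Cd14, Wfdc18, Csn3, Trf, Gabrp and Tspan8), 0 were lower, and Ehf and Itgb3 did not pass the test. A list of luminal progenitor surface genes, which also holds Cd14, Gabrp and Tspan8, was split. Of 11 tested, 4 were higher (those and Cd55) and 2 lower (Cldn10 and Prom1), with a median log2 difference of 0.25. Across all genes 30.4% of 11568 tested passed an adjusted p of 0.05 by edgeR's quasi-likelihood test, 14.3% of those tested being higher and 16.2% lower in secretory cells. Fibroblast markers were low. The summed level of 6 fibroblast genes was 212 to 360 CPM in the secretory cells of a library against 1778 to 3302 CPM in the other gland cells, and the former was lower in every library. Immune and endothelial cells had been depleted before capture, and 6 measured immune genes summed to 5.35 to 24.9 CPM against 3.58 to 46.4 CPM in other cells. Endothelial genes summed to 6.01, 149.7, 24.2 and 25.3 CPM against 70.0, 64.05, 192 and 129 CPM, so they were higher in the secretory cells of MG1 replicate 2. The low sums of 3 pericyte genes were higher there (29.1 against 13.3 CPM) and in MG2 replicate 1 (17.8 against 16.1 CPM). The former came from the library with the fewest UMIs. The part of these transcripts in the results was not tested. The smooth-muscle and keratin genes of the basal gate were not low. Those 7 genes summed to 425 to 1060 CPM in secretory cells, 74.4 to 309 CPM in hormone-sensing cells and 292 to 676 CPM in all other gland cells, and 52 secretory cells also passed a basal gate. Doublets were not removed, and the part of joined cells or free RNA in these basal transcripts was not tested.

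Secretory and other gland cells differed in 3521 genes, 1651 higher and 1870 lower in secretory cells. Without MG1 replicate 1 the balance turned, with 1449 higher and 1380 lower. Fold changes are given below as log2 values with standard errors from a fit in which each library was its own block, over 4 libraries, and levels are in CPM of the summed cells. Because the cells were separated by genes of these same transcriptomes, genes that vary together with the gate genes were bound to differ, so these calls describe the gated cells. Levels are listed in the order MG1 replicate 1, MG1 replicate 2, MG2 replicate 1 and MG2 replicate 2 throughout.

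Milk protein genes were the most raised group, in mice whose stage, virgin or pregnant, was not stated. Of 15 genes tested, 11 were higher and 0 lower, with a median log2 difference of 2.68 against −0.01 over all genes. Csn1s1, which encodes alpha-S1 casein, stood at 2076, 4742, 2245 and 1882 CPM in secretory cells and at 239, 284, 338 and 438 CPM in other cells. Csn3, the kappa casein that keeps casein micelles in suspension, stood at 3293, 3260, 4519 and 4568 CPM against 464, 232, 1019 and 1141 CPM. The groups did not overlap for either gene, with log2 differences of 2.96 ± 0.41 (SE, adjusted p = 0.017, edgeR) and 2.64 ± 0.40 (adjusted p = 0.023, edgeR).

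Wap and Csn1s2a were less even among libraries. Wap, the whey acidic protein gene, was almost absent from the secretory cells of MG1 replicate 1, at 3.05 CPM, and stood at 489, 297 and 282 CPM in the other libraries, against 0, 27.8, 36.6 and 79.1 CPM in other cells (log2 difference 2.72 ± 0.42, adjusted p = 0.0092, edgeR). Its call was lost with a gate without Lcn2 and Ltf (2.68, adjusted p = 0.055, edgeR) and without the cells of highest UMI count (2.40, adjusted p = 0.13, edgeR). Csn1s2a, an alpha-S2 casein gene, stood at 619, 6927, 3701 and 2207 CPM against 32.7, 608, 451 and 836 CPM (2.97 ± 0.61, adjusted p = 0.048, edgeR). Within each library both were higher in the secretory cells, but for Wap in MG1 replicate 1 this was 3.05 against 0 CPM, near the floor. Csn2, the beta casein gene, stood at 1423, 9597, 4863 and 4018 CPM against 32.1, 655, 685 and 972 CPM, and missed the threshold (3.40 ± 0.74, adjusted p = 0.053, edgeR), as did Spp1, encoding osteopontin (2.68 ± 0.60, adjusted p = 0.057, edgeR). The genes of fat globule and iron transport were steadier: Mfge8, a milk fat globule protein, rose by 2.09 ± 0.10 (adjusted p = 1.8e-11, edgeR), and Trf, transferrin, by 2.38 ± 0.18 (adjusted p = 8.3e-05, edgeR). Btn1a1, the butyrophilin that coats fat globules, stood at 154, 149, 99.1 and 78.3 CPM against 16.1, 1.99, 15.1 and 20.0 CPM (2.81 ± 0.34, adjusted p = 0.00054, edgeR).

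The casein calls were near the threshold. Csn1s1 and Csn3 lost their calls without MG2 replicate 1 (2 libraries of MG1 and 1 of MG2, adjusted p = 0.094 and 0.086, edgeR) and with sums per mouse (adjusted p = 0.15 and 0.17, edgeR), and Csn1s2a also without MG1 replicate 2 (adjusted p = 0.14, edgeR), while their log2 differences stayed between 2.46 and 3.06 for Csn1s1 and Csn3 in those fits and in one with a gate without Lcn2 and Ltf. The comparison cells held a few strong milk producers: 5 cells of MG2 replicate 1 and 6 of MG2 replicate 2 outside the gate had over 5% of their UMIs in 8 milk protein genes.

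The casein genes Csn1s1, Csn2 and Csn1s2a are neighbours on chromosome 5, and their promoters are shown with that of Wap because all 4 encode major milk proteins of this group. The lines give the 250 bases before the RefSeq start site in GRCm38.p6, 5′ to 3′ on the gene's strand, with capitals marking each match to TTCNNNGAA, the palindromic core bound by STAT factors, which reads the same on both strands. The windows are chr5:87665958-87666207 (+) for Csn1s1, chr5:87699426-87699675 (−) for Csn2, chr5:87774200-87774449 (+) for Csn1s2a and chr11:6638650-6638899 (−) for Wap.
Csn1s1: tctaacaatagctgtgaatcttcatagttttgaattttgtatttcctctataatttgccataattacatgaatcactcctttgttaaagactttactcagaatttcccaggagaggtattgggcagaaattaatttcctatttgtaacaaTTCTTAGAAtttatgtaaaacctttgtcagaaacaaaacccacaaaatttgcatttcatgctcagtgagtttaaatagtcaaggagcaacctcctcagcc
Csn2: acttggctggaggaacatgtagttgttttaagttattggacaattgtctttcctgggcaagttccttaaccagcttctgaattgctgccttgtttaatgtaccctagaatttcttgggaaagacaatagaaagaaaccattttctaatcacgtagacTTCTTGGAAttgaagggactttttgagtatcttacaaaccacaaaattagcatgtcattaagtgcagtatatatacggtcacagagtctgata
Csn1s2a: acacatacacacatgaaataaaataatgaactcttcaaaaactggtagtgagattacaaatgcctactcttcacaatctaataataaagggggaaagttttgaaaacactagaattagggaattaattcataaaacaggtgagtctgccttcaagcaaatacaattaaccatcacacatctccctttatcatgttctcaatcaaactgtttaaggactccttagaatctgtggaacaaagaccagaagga
Wap: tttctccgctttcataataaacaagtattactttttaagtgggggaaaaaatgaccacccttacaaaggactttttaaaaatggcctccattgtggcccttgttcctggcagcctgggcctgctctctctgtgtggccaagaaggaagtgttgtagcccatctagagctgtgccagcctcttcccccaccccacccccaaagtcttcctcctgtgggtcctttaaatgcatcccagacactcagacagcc
Csn1s1 held 1 match, beginning 100 bases before the start, and Csn2 held 1, beginning 93 bases before it, whereas the Csn1s2a and Wap windows held 0. RefSeq promoters were matched for 10 of the 15 milk genes, and 3 of the 10 held a match (Glycam1 the third, which belongs to the group but was not called). The share over all 32851 promoter entries of this length was 7.02%. A match is a description of the letters and not a binding site.

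Antimicrobial and innate defence genes formed the second raised group, with 10 of 18 tested genes higher, 2 lower and a median log2 difference of 1.37. Wfdc18, a whey acidic protein-type protease inhibitor, stood at 3825, 4766, 4913 and 4822 CPM in secretory cells and at 365, 632, 849 and 954 CPM in other cells (2.79 ± 0.20, adjusted p = 0.00029, edgeR). Pigr, the receptor that carries immunoglobulin A into milk, stood at 125, 432, 111 and 77.4 CPM against 11.6, 29.8, 18.9 and 17.1 CPM (2.88 ± 0.23, adjusted p = 5.6e-07, edgeR). Cd14, a co-receptor for bacterial lipopolysaccharide and a luminal progenitor surface marker, stood at 406, 384, 702 and 715 CPM against 68.7, 65.5, 198 and 243 CPM (2.04 ± 0.17, adjusted p = 5.1e-06, edgeR). The groups did not overlap for any of these 3 genes, and Pigr was highest in MG1 replicate 2.

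S100a8, a calprotectin subunit, stood at 20.3, 287, 258 and 208 CPM against 1.66, 45.7, 40.9 and 27.1 CPM (2.80 ± 0.16, adjusted p = 3.9e-10, edgeR). It was low in both kinds of cells of MG1 replicate 1, so the ranges of the groups overlapped although each library showed the difference. The acute-phase gene Saa2 was at 19.3, 303, 943 and 1004 CPM against 1.11, 37.7, 242 and 325 CPM (2.07 ± 0.25, adjusted p = 0.0011, edgeR), a call lost with the gate without Lcn2 and Ltf (1.58, adjusted p = 0.12, edgeR), and Saa1 missed the threshold (2.62 ± 0.64, adjusted p = 0.068, edgeR). Of the list 2 genes were lower, Wfdc2, another protease inhibitor of the whey acidic protein family, at 126, 182, 116 and 137 CPM against 685, 608, 920 and 1016 CPM (−2.60 ± 0.18, adjusted p = 6.6e-06, edgeR), and Ptx3, a soluble pattern receptor (−2.29 ± 0.45, adjusted p = 0.030, edgeR). The Ptx3 call was lost when the comparison cells were limited to those with Epcam (−0.57, adjusted p = 0.72, edgeR) and without MG1 replicate 2 (adjusted p = 0.096, edgeR).

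Among the 12 most raised called genes with at least 50 CPM, 4 belonged to no list. Muc4, a membrane mucin, stood at 32.5, 88.9, 59.6 and 97.7 CPM against 5.54, 7.94, 10.3 and 11.2 CPM (2.85 ± 0.23, adjusted p = 2.3e-08, edgeR). Fcgbp, a mucus protein, stood at 297, 283, 344 and 549 CPM against 37.7, 43.7, 75.3 and 113 CPM (2.47 ± 0.14, adjusted p = 3.7e-10, edgeR). Slc28a3, a concentrative nucleoside transporter, rose by 2.61 ± 0.18 (adjusted p = 1.3e-08, edgeR) and Atp6v1b1, a subunit of the proton pump, by 2.65 ± 0.24 (adjusted p = 7.6e-06, edgeR), the latter from 334 CPM in MG1 replicate 1 to 68.2 CPM in MG2 replicate 1 among secretory cells. All 4 were separated from the other cells in every library.

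Genes of lipid synthesis and of lactose and ion transport split. In the fatty acid list 9 of 23 genes were higher and 2 lower, with a median log2 difference of 0.49. Plin2, the lipid droplet coat protein, stood at 381, 485, 961 and 746 CPM against 43.2, 91.4, 248 and 230 CPM (2.22 ± 0.25, adjusted p = 0.0015, edgeR), and Scd1, a fatty acid desaturase, rose by 1.92 ± 0.13 (adjusted p = 2.7e-09, edgeR). Fabp3, a fatty acid carrier of the lactating gland, stood at 2.03, 533, 100.6 and 48.8 CPM against 2.22, 53.6, 3.87 and 12.9 CPM (3.04 ± 0.53, adjusted p = 0.012, edgeR), was not higher in MG1 replicate 1, and lost its call without MG1 replicate 2 (2.90, adjusted p = 0.067, edgeR). Dgat2, which makes triglyceride, was lower (−3.19 ± 0.21, adjusted p = 2.1e-09, edgeR). In the lactose and transport list 5 of 15 genes were higher and 6 lower, with a median of −0.25. Slc2a1, the main glucose transporter of the gland, rose by 1.24 ± 0.14 (adjusted p = 2.5e-06, edgeR), whereas Slc12a2, the sodium-potassium-chloride cotransporter, fell from 1719, 590, 2097 and 1591 CPM in other cells to 238, 145, 241 and 263 CPM (−2.73 ± 0.14, adjusted p = 4.7e-08, edgeR), and Slc5a5, the iodide transporter, was also lower (−4.15 ± 0.28, adjusted p = 2.3e-09, edgeR).

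**Figure D2:**
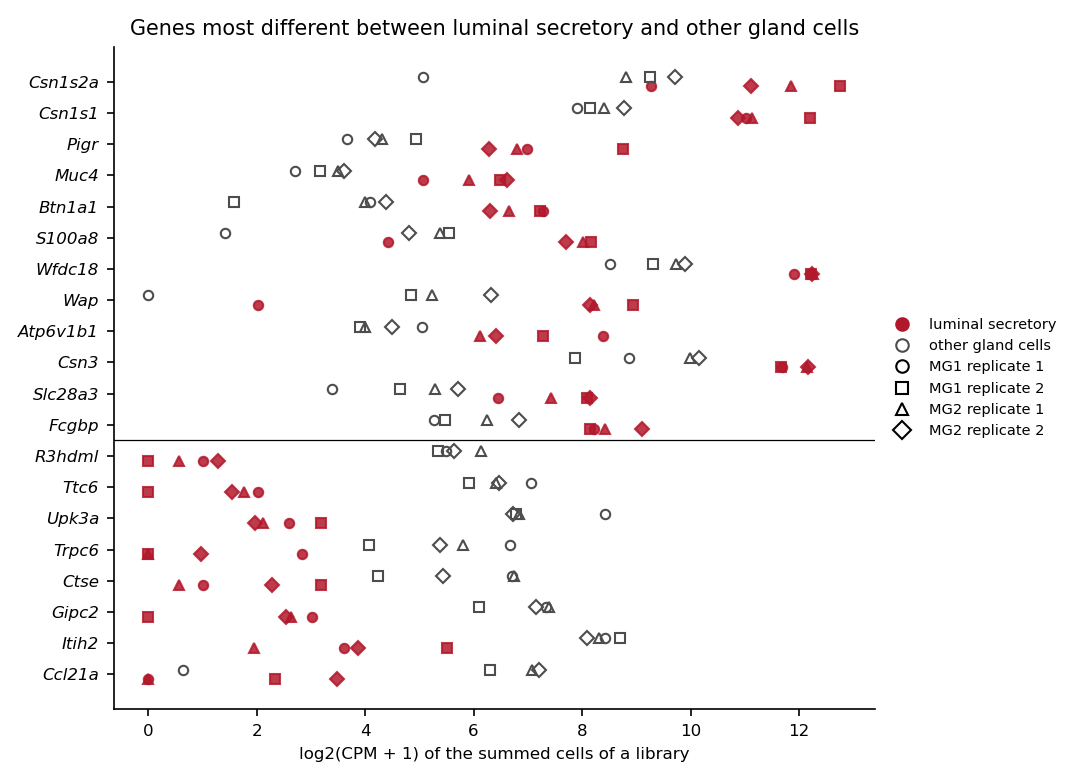
Levels, as log2(CPM + 1) of the summed cells of each gland library (horizontal axis), of the 12 genes most raised and the 8 most lowered in luminal secretory cells among called genes with at least 50 CPM in the higher arm and 1 direction in all 4 libraries. Filled red symbols are secretory cells, open symbols the other gland cells, and the symbol shape gives the library; Wap and S100a8 are lowest in MG1 replicate 1 in both kinds of cells.

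Among 19 transcription factors of the luminal and alveolar program, 8 were higher and 2 lower, with a median log2 difference of 0.23. Sox10, a factor of progenitor and neural crest cells, stood at 44.8, 60.6, 61.5 and 91.9 CPM against 19.4, 11.9, 20.6 and 18.7 CPM (1.79 ± 0.21, adjusted p = 3.9e-06, edgeR). Cebpd and Cebpb, C/EBP factors needed for alveolar development and involution, rose by 1.39 ± 0.15 and 1.03 ± 0.10 (adjusted p = 7.7e-06 and 3.0e-07, edgeR), and Elf3, an epithelial ETS factor, by 1.133 ± 0.138 (adjusted p = 4.9e-06, edgeR). Ehf, a related ETS factor, missed the threshold (0.99 ± 0.33, adjusted p = 0.097, edgeR). The 2 lower ones were Hes1, a Notch target (−0.40 ± 0.12, adjusted p = 0.014, edgeR), and Stat5a, a transducer of prolactin signals, with a mean of 17.3 CPM against 49.1 CPM (−1.32 ± 0.23, adjusted p = 0.00018, edgeR). Stat5a kept its call in all 15 alternative fits, whereas Hes1 lost its call in 6 of them, among them those without MG2 replicate 1 (−0.38, adjusted p = 0.097, edgeR) and without MG2 replicate 2 (−0.34, adjusted p = 0.15, edgeR). Against hormone-sensing cells 8 of the 19 were higher and 5 lower (Stat5a, Bhlhe40, Hes1, Gata3 and Runx1), with Stat5a at 28.0, 12.3, 15.04 and 15.3 CPM against 60.7, 59.3, 53.6 and 54.4 CPM (−1.65 ± 0.23, adjusted p = 4.7e-05, edgeR). The median of this list lay nearer to that of all genes than the medians of the milk and defence lists.

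Of 6 genes in the luminal keratin list 2 were higher and 2 lower. Krt8 and Krt18 were higher, Krt8 at 6088, 4253, 3325 and 3172 CPM against 3328, 2004, 2193 and 1993 CPM (0.80 ± 0.08, adjusted p = 7.0e-07, edgeR), while Krt7 and Krt19 were lower (−1.20 ± 0.14 and −0.64 ± 0.09, adjusted p = 4.4e-06 and 1.8e-05, edgeR). Krt15 stood at 16.3, 60.6, 14.8 and 24.2 CPM against 259, 294, 41.3 and 37.5 CPM and missed the threshold (−2.02 ± 0.65, adjusted p = 0.11, edgeR). Of 15 junction genes 6 were higher, among them Cdh1, E-cadherin (0.50 ± 0.10, adjusted p = 0.0011, edgeR), and 2 lower, Cldn4 and Dsp (−0.85 ± 0.11 and −0.90 ± 0.12, adjusted p = 7.3e-06 and 8.8e-06, edgeR). Against hormone-sensing cells 4 of the 15 were higher and 3 lower, with a median of 0.002, and Cdh1 was not called. With no block by library, the fit against other gland cells called 1219 of 10057 genes, 414 higher and 805 lower. In it 1 of 15 junction genes was higher and 1 lower, and of 6 keratins 0 were higher and 2 lower. The counts higher and lower were 4 and 2 of 16 defence genes and 3 and 4 of 13 lactose and transport genes. Of 19 transcription factors 5 were higher and 1 lower. Of 13 chemokine and cytokine genes 3 were higher and 4 lower against all other gland cells. Against other cells with Epcam 2 were higher and 2 lower, and with no block 1 was higher and 3 lower. Cxcl2, a neutrophil attractant, stood at 513, 1103, 1023 and 1496 CPM against 147, 433, 470.5 and 599 CPM (1.39 ± 0.11, adjusted p = 1.7e-08, edgeR), and Csf3, the granulocyte growth factor, rose by 1.71 ± 0.15 (adjusted p = 1.6e-07, edgeR). Ccl2, a monocyte attractant, was lower by −3.25 ± 0.16 against all other cells (adjusted p = 4.6e-11, edgeR), but its call was lost against other cells with Epcam (−1.60, adjusted p = 0.29, edgeR), and fibroblast genes were higher in the full comparison, as given above.

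Hormone-sensing genes outside the gate were lower in secretory cells, with 9 of 10 tested genes lower, 0 higher and a median log2 difference of −2.96. Pgr, the progesterone receptor, stood at 7.12, 8.08, 2.38 and 10.6 CPM in secretory cells and at 230, 109, 119 and 139 CPM in other cells (−4.47 ± 0.25, adjusted p = 1.4e-09, edgeR). Esr1, the estrogen receptor, stood at 7.12, 4.04, 8.58 and 8.22 CPM against 57.6, 39.7, 59.3 and 52.5 CPM (−2.80 ± 0.23, adjusted p = 4.7e-08, edgeR), and Foxa1, its pioneer factor, was lower by −3.25 ± 0.25 (adjusted p = 1.4e-08, edgeR). Neither receptor overlapped between the groups. The 8 most lowered genes were R3hdml, Ttc6, Upk3a, Trpc6, Ctse, Gipc2, Itih2 and Ccl21a, with log2 differences of −5.77 to −4.80. Upk3a, a uroplakin, stood at 5.09, 8.08, 3.34 and 2.90 CPM against 341, 109, 114 and 105 CPM (−5.30 ± 0.24, adjusted p = 1.3e-11, edgeR). Ccl21a, a lymphocyte chemokine, was at 0.55 CPM in the other cells of MG1 replicate 1 and at 77.5 to 146 CPM in the other 3 libraries. It was not a marker of hormone-sensing cells, being seen in 0.63% of them and 0.52% of secretory cells without thinning.

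Genes of DNA repair, growth and stress were mixed. Brca1 was counted with 0, 0, 3 and 4 UMIs in the secretory cells, too few to compare, and the 0 UMIs of MG1 allow up to 2.13 CPM. Drop-seq reads the 3′ end, so these counts do not show whether the floxed exon was removed. Trp53 stood at 67.1, 36.4, 53.4 and 58.0 CPM against 36.0, 37.7, 49.0 and 56.2 CPM and did not pass the test (0.28 ± 0.19, adjusted p = 0.27, edgeR). In the homologous recombination list 2 of the 4 genes deep enough to test were higher, of which Brca2 (0.85 ± 0.31, adjusted p = 0.045, edgeR) lost its call without MG1 replicate 1, MG2 replicate 1 or MG2 replicate 2 (adjusted p = 0.056, 0.13 and 0.30, edgeR). Of 14 tested Trp53 targets and partners 3 were higher and 1 lower, and of 12 proliferation genes 1 was higher, the replication clamp Pcna (0.57 ± 0.13, adjusted p = 0.0021, edgeR). Over all genes 14.3% were higher and 16.2% lower. With no block by library, 0 genes were called in the homologous recombination, Trp53 and proliferation lists. Mki67, a proliferation marker, was seen in 1.12% of secretory, 0.72% of hormone-sensing and 1.6% of fibroblast cells thinned to 1000 UMIs (2.5, 1.7 and 1.6% without thinning). The last share is 1 of 64 cells and fibroblasts can divide, so it sets no background here. Of 16 immediate early genes, which respond to dissociation, 5 were higher and 4 lower, with a median of 0.09, but 2 were higher and 4 lower without the secretory cells in the basal gate, and 1 was higher and 0 lower with no block. Their summed share of UMIs was lower in the secretory cells of every library, at 1.20, 0.76, 0.69 and 0.70% against 1.55, 0.91, 0.90 and 0.87% in other cells.

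Against the hormone-sensing cells alone, 3824 of 10425 genes passed the test (36.7%), 2046 higher (19.6%) and 1778 lower (17.1%) in secretory cells. The balance turned with RLE size factors (1807 higher and 1954 lower), with the gate without Lcn2 and Ltf (1683 and 1844) and without the secretory cells in the basal gate (1650 and 2066). All but 1 of 15 milk genes were higher, 14 in number, with a median log2 difference of 3.28 against 0.04 over all genes. Csn2 stood at 32.4, 290, 224 and 330 CPM in hormone-sensing cells, below the 1449, 9772, 4951 and 4092 CPM of secretory cells scaled in the same fit (4.57 ± 0.38, adjusted p = 0.0020, edgeR). Lalba, the alpha-lactalbumin that makes lactose synthase, stood at 360.2, 317, 330.5 and 388 CPM against 9.71, 33.0, 56.4 and 15.04 CPM (3.78 ± 0.54, adjusted p = 0.0084, edgeR), and S100a8 was also higher (4.87 ± 0.23, adjusted p = 4.5e-10, edgeR). With a gate that left out Lcn2 and Ltf, the calls of Csn1s1, Csn1s2a, Csn2, Wap, Lalba, Spp1 and Saa1 were lost, with log2 differences of 2.37 to 3.70 (adjusted p = 0.057 to 0.11, edgeR), and with sums per mouse that of Csn2 was lost too (4.56, adjusted p = 0.054, edgeR).

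Piezo2, a mechanosensitive channel, and Prom1, a surface marker of hormone-sensing cells, were among the genes lower than in hormone-sensing cells, Piezo2 at 10.4, 8.23, 9.22 and 15.8 CPM against 260, 310, 538 and 539 CPM (−5.27 ± 0.20, adjusted p = 1.0e-10, edgeR). The basal and myoepithelial genes were higher in 8 of 12 cases, with a median of 1.77, among them Krt14, a basal keratin (1.91 ± 0.46, adjusted p = 0.033, edgeR), and Acta2, smooth-muscle actin, at 72.5, 148, 148 and 121 CPM against 23.5, 6.59, 17.6 and 24.3 CPM (2.52 ± 0.27, adjusted p = 1.3e-05, edgeR). Against all other gland cells 1 of the 12 was higher, Acta2, whose difference turned to −1.14 with the gate without Lcn2 and Ltf. The median of the list was 0.40, and without the secretory cells in the basal gate 0 were higher and 2 lower, with a median of −0.23. Without the 52 secretory cells in the basal gate, a choice made after the data were seen, 4 of the 12 were called with a median of 1.07, and Krt14 was not called (1.12, adjusted p = 0.098, edgeR), nor was it without MG2 replicate 1 (1.65, adjusted p = 0.062, edgeR). With the gate without Lcn2 and Ltf, Acta2 was at 0.25 (adjusted p = 0.43, edgeR). Of 15 genes of RANK and NF-kB signalling, 7 were higher and 0 lower, with a median of 0.50, including the receptor gene Tnfrsf11a. Without the 52 cells 5 were higher and 1 lower, with no block 2 were higher, and against all other gland cells 3 of 16 were higher.

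**Figure D3:**
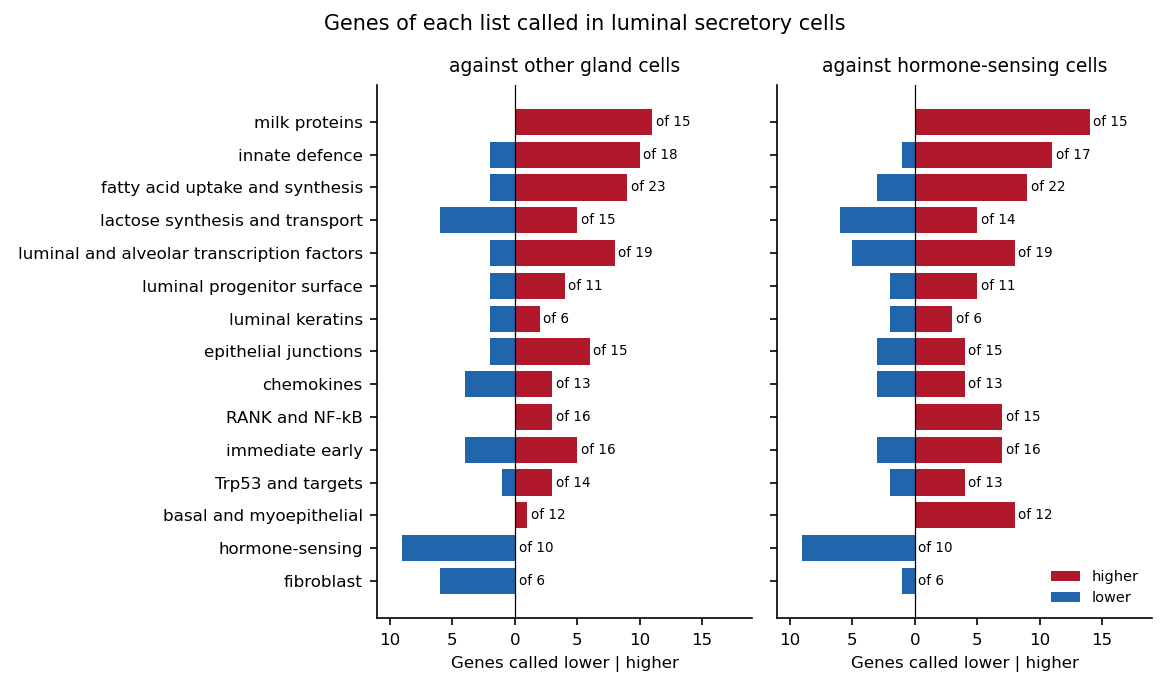
Number of genes of each list called higher (red, to the right) or lower (blue, to the left) in luminal secretory cells, against all other gland cells (left panel) and against hormone-sensing cells (right panel), with the number tested beside each bar. Milk protein genes were called only higher and hormone-sensing genes only lower in both comparisons, and basal genes were called higher in 1 of 12 and 8 of 12, or in 0 and 4 without the secretory cells in the basal gate (not drawn).

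Against basal cells the comparison rested on 3 libraries, since MG1 replicate 2 held 5 basal cells, and the 52 cells of both gates were left out. Of 6730 genes 1436 passed the test (21.3%), 941 higher (14.0%) and 495 lower (7.36%), but the median of all genes lay at a log2 difference of 0.36. With RLE size factors it lay at 0.17 and the calls were 655 higher and 630 lower. Lalba had 1817 UMIs in secretory cells and 0 in basal cells, at least 42.7-fold higher with the basal level set at 3 UMIs over the group. By the same bound Wfdc3, a whey acidic protein-type gene, was at least 25.3-fold, S100a8 at least 23.3-fold, Btn1a1 at least 12.2-fold and Pigr at least 12.1-fold higher, and the call of S100a8 was lost by DESeq2 (adjusted p = 0.054). All 7 tested genes of the basal and myoepithelial list were lower in secretory cells (Mylk, Cnn1, Tagln, Cxcl14, Snai2, Jag1 and Myl9), with a median of −3.42, in a comparison with cells gated on other genes of that list. Tpm2, a tropomyosin, stood at 135, 132 and 62.8 CPM against 1826, 1466 and 1144 CPM (−3.79 ± 0.18, adjusted p = 4.2e-11, edgeR), and Cnn1, calponin, at 33.1, 14.9 and 8.89 CPM against 609, 115 and 102 CPM (−3.64 ± 0.33, adjusted p = 2.4e-07, edgeR).

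Secretory cells varied widely among themselves in milk protein RNA. The 8 genes Csn1s1, Csn1s2a, Csn1s2b, Csn2, Csn3, Wap, Lalba and Glycam1 supplied a median of 0.42, 0.41, 0.43 and 0.57% of a secretory cell's UMIs in the 4 libraries, but up to 10.8, 21.1, 34.4 and 27.1% in single cells. The tenth of cells richest in them held 54.0, 78.4, 72.5 and 63.7% of all milk UMIs of the secretory cells. Cells with over 5% numbered 2 of 270, 4 of 38, 29 of 530 and 21 of 498. In hormone-sensing cells the highest values were 1.20, 0.40, 4.56 and 8.59%, and in 64 fibroblast cells the median stood between 0 and 0.13%. In MG1 replicate 2 every secretory and every hormone-sensing cell held milk UMIs, and 3 of its 4 fibroblast cells did too; the part of free RNA in these values was not tested.

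**Figure D4:**
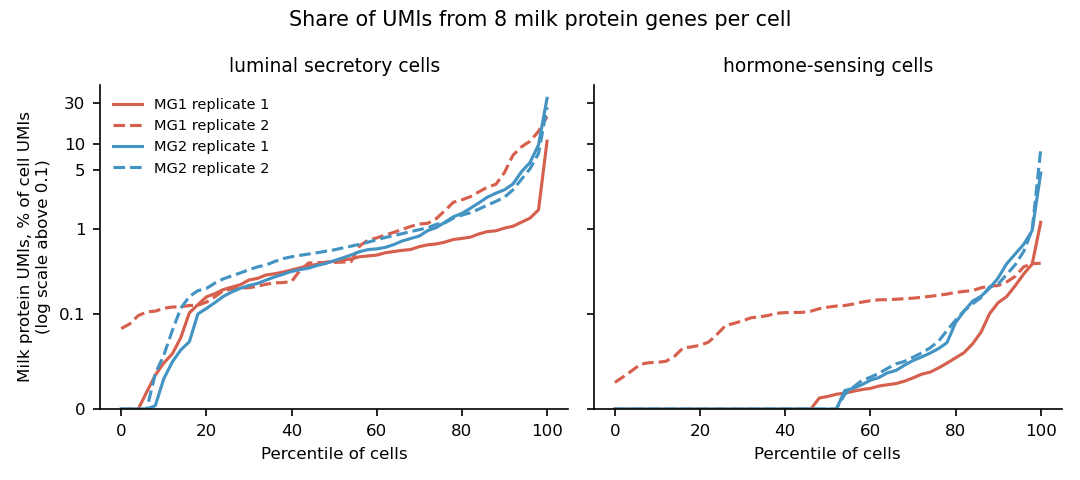
Share of a cell's UMIs that came from 8 milk protein genes (vertical axis, percent, logarithmic above 0.1 and linear below) against the percentile of cells (horizontal axis), in luminal secretory cells (left) and hormone-sensing cells (right). Each line is a gland library; the secretory cells have medians of 0.41 to 0.57% and a steep upper end that reaches 10.8 to 34.4%.

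Read cell by cell at 1000 UMIs each, which no gland cell in these gates fell short of, the milk genes were not equally widespread. Csn3 was seen in 80.7% of secretory, 19.2% of hormone-sensing and 6.25% of fibroblast cells, the last being background (88.8, 32.9 and 17.2% without thinning, at median depths of 2774, 2715 and 2013 UMIs). Csn1s1 was seen in 55.0, 9.1 and 4.7% and Csn2 in 34.1, 7.3 and 3.1%. Wap was seen in 4.1, 0.4 and 1.6%, and Saa1 in 22.3, 5.0 and 1.6%. Wfdc18 was seen in 71.6, 14.9 and 4.7%. Apart from Wap and Saa1, where 1 of 64 fibroblast cells sets the background, each share in secretory cells was several times that in fibroblast cells. The other backgrounds also rested on few of these 64 cells. The libraries differed: in the order used above, Csn2 was seen in 11.5, 52.6, 38.7 and 40.0% of secretory cells, Saa1 in 2.59, 10.5, 30.2 and 25.5%, Wfdc18 in 54.8, 81.6, 72.1 and 79.3%, Csn1s1 in 58.5, 42.1, 51.7 and 57.6% and Csn3 in 83.3, 71.1, 77.5 and 83.3%.

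The spread between cells was also described by the Fano factor, the variance over the mean of thinned counts, over the 3 libraries with at least 100 secretory cells. The middle of its 3 library values had a median of 1.08 over 2347 genes with at least 0.05 UMIs per cell. No adjustment was made for the mean count of a gene. The lowest of the 3 library values was 28.4 for Csn2, 9.97 for Csn1s2a, 8.19 for Saa1, 6.86 for Spp1, 6.72 for Wfdc18 and 5.51 for Cxcl2, and 2.36 for Csn3. Among the 10 highest were also mt-Rnr2, mt-Rnr1 and Gm42418, ribosomal RNA transcripts or their overlaps, and Fst, follistatin, an activin antagonist. Across secretory cells of 1 library, log counts of Csn1s1 and Csn2 had a Pearson correlation of 0.64 in 530 cells of MG2 replicate 1, 0.62 in 498 cells of MG2 replicate 2 and 0.33 in 270 cells of MG1 replicate 1, and Saa1 with Saa2 had 0.88, 0.82 and 0.83. Kit with Csn2 had 0.04, −0.01 and −0.04. Other pairs differed in sign between the libraries of the mice: in the same order Csn2 with Csn3 had 0.42, 0.37 and −0.083, and Wfdc18 with Csn3 had 0.28, 0.30 and −0.14. These pairs were chosen after the leading genes were seen, and their cells share a library and 1 thinned depth.

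The secretory cells of the glands of both mice were then set against each other, a contrast the gate did not use, over 2 libraries a side. Of 9344 genes, 8 passed the test (0.0856%), 5 higher and 3 lower in MG2, and 911 had an unadjusted p under 0.05, while DESeq2 called 86, 18 higher and 68 lower. None of 15 tested milk genes passed by edgeR, where Csn3 differed by 0.46 ± 0.28 (adjusted p = 0.64), and Csn2 by −0.31 ± 0.72 (adjusted p = 0.92). The libraries of MG1 were unlike each other: without MG1 replicate 1 the count was 1114 genes, without MG1 replicate 2 it was 1195, and without MG2 replicate 1 or 2 it was 21 or 35, all by edgeR. With 1 library left in an arm the spread comes from the pair of the other mouse alone, so these counts assume that the lone library varies like that pair. Without MG1 replicate 2 the differences of Csn2 and Csn1s2a turned from below 0 to 1.64 and 2.25.

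The 5 genes higher in MG2 were Gm43305, Ifi202b, Saa3, Zfp949 and Gm15459. Gm43305, a processed transcript on chromosome 14, had 0, 0, 332 and 402 CPM, at least 169-fold higher in MG2 with 3 UMIs set over the MG1 cells (adjusted p = 0.0092, edgeR). Ifi202b, an interferon-inducible gene known to differ between mouse strains, had 1.02, 0, 126 and 113 CPM (7.04 ± 0.59, adjusted p = 0.0092, edgeR). Saa3, an acute-phase protein made in epithelia, had 5.09, 0, 134 and 102.5 CPM (4.86 ± 0.56, adjusted p = 0.041, edgeR), and Gm15459 is a processed pseudogene whose reads may belong to its parent gene. The genes lower in MG2 were the small nucleolar RNAs Snord49b and Snord42a and the mitochondrial transfer RNA mt-Tc, at 130, 133, 5.72 and 4.35 CPM. The mice were of mixed strain, and the parts of strain, animal and library batch in these 8 differences cannot be told apart.

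A test of whether the difference between secretory and other gland cells depended on the mouse called 45 of 11568 genes (0.389%), with 791 at an unadjusted p under 0.05 and 11 called by DESeq2. Lalba was among them: its secretory level was alike in all libraries, at 354, 311, 325 and 381 CPM, and its level in other cells was 8.31, 21.8, 91.6 and 87.5 CPM (difference between the mice −2.87 ± 0.34 on the log2 scale, adjusted p = 1.5e-05, edgeR). Clca3a2, a calcium-activated chloride channel regulator, was higher in secretory than in other cells in MG1 (463 and 246 against 194 and 83.4 CPM) and lower in MG2 (916 and 952 against 1905 and 1870 CPM), a difference of −2.36 ± 0.19 (adjusted p = 1.4e-09, edgeR). Krt15, a keratin gene, was lower in secretory cells in both mice, more so in MG1, where other cells held 259 and 294 CPM against 41.3 and 37.5 CPM in MG2 (2.29 ± 0.46, adjusted p = 0.041, edgeR). The Krt15 call was lost by DESeq2 (adjusted p = 0.13) and, by edgeR, without MG1 replicate 1 (1.45, adjusted p = 0.093) or MG2 replicate 2 (1.82, adjusted p = 0.47). The count of such genes was 237 without MG1 replicate 1, 70 without MG1 replicate 2, 21 without MG2 replicate 1 and 20 without MG2 replicate 2.

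**Figure D5:**
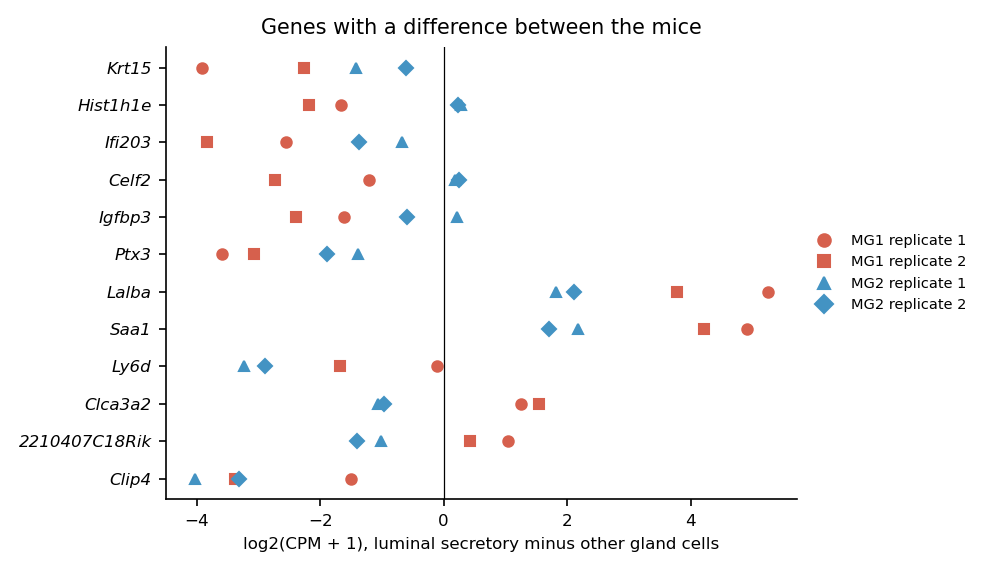
Difference in log2(CPM + 1) between luminal secretory and other gland cells (horizontal axis) in each gland library, for the 12 genes named by the test of a difference between the mice. Red symbols are MG1 libraries and blue symbols MG2 libraries; for Clca3a2 the MG1 libraries lie above 0 and the MG2 libraries below it.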

How the data were processed

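The deposited tables held raw UMI counts per gene and cell, made by the authors from Drop-seq reads of 12 libraries, of which 4 gland libraries were used. The submitters' processing notes name STAR and GRCm38.p6. The counting strand was not given in the sources used here, so overlapping antisense genes cannot be told apart. Cells were used as deposited, with no further filter and no doublet removal. Between 693333 and 4425910 UMIs were held per gland library.

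The cells, gene lists and tests were chosen with earlier results of these data known. Counts were summed per library over luminal secretory cells and over each comparison group, where an arm needed 10 cells. The 15 genes of the gate were left out of the tests, as were the 7 basal gate genes against basal cells. Sums were tested with the quasi-likelihood F test of edgeR 4.0.16 in R 4.3.3 (TMM scaling, its expression filter, Benjamini-Hochberg adjusted p under 0.05). Both arms come from 1 library, so the library was the block by design; replicate numbers pair nothing across mice. CPM were scaled within each comparison and differ slightly between them. DESeq2 1.42.0 was an alternative. The test was checked on simulated counts.

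Genes named were the called genes with at least 50 CPM in the higher arm and the same direction in every library that differed most, 12 highest and 8 lowest against other cells, 10 and 8 against hormone-sensing cells, 6 and 6 against basal cells and up to 8 or 6 each way between mice, plus members of the lists. Shares of cells were thinned to 1000 UMIs per cell. List genes without a value here were tested where they were measured and deep enough, but their results are not given. Alternatives were RLE size factors, no expression filter, no block, leaving out each library, sums per mouse, thresholds of 3 and 6 UMIs, a gate without Lcn2 and Ltf, an Epcam-only comparison group and leaving out cells above the 95th percentile of UMIs. Leaving out secretory cells in the basal gate was added after seeing the data.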

Additional observations from a re-analysis of the deposited data

Results flagged for a closer look

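The difference between luminal secretory and other gland cells itself differed between the mice for 45 genes by edgeR's interaction test. The 6 named genes with a more positive difference in MG2 were Krt15 (2.29 on the log2 scale), Hist1h1e (2.04), Ifi203 (1.95), Celf2 (1.95), Igfbp3 (1.91) and Ptx3 (1.87). The 6 with a more negative difference were Lalba (−2.87), Saa1 (−2.63), Ly6d (−2.58), Clca3a2 (−2.36), 2210407C18Rik (−2.08) and Clip4 (−2.01). Of these 12 genes, 3 kept their call in every alternative fit. Mouse and library batch cannot be told apart.

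The same gate was also passed by 3135 cells of the MT1 tumor libraries and by 37 cells of the MT2 tumor libraries, which no comparison here used. The share in MT1 was 32.5 to 51.0% of the cells of a library, but the median gate sum was 7 to 8 UMIs, against 23 to 38 in the glands, and Ltf was seen in 6.42 to 8.50% of the MT1 cells against 31.5 to 41.8% of the gland cells. Median depth was 2006 to 3474 UMIs in those MT1 cells and 2522 to 4672 UMIs in the gland cells.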

How the results depend on the processing

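Leaving out 1 library at a time gave 1837 to 3898 called genes against other gland cells, 2119 to 4133 against hormone-sensing cells, 879 to 1299 against basal cells, 21 to 1195 between the mice and 20 to 237 for the difference between the mice. With no replicate block, that is, without pairing the arms of a library, 1219 genes were called against other cells, 1212 of them also with the block, and 1692 against hormone-sensing cells, 1685 of them also with the block. DESeq2 called 762 genes against basal cells (320 higher, 442 lower), 86 between the mice and 11 for the difference between the mice. Without the expression filter the last 2 counts were 4 and 110. With a gate without Lcn2 and Ltf, 33.4% of gland cells passed, 15 genes differed between the mice, and Slpi (−0.70) and Acta2 (−1.14) turned to lower against other cells. Without secretory cells in the basal gate 13 genes differed between the mice. The differences between the mice ranged from −1.23 without MG1 replicate 1 to 2.25 without MG1 replicate 2 for Csn1s2a and from −1.11 to 1.64 for Csn2, reversed without MG1 replicate 2. That of Clip4 ranged from −2.23 to 0.076, reversed without MG1 replicate 1. The cause was not tested. MG1 replicate 2 contributed 38 secretory cells, the fewest.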

Other observations

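Ribosomal protein genes, a group of 81 chosen after their values were seen, supplied a median of 14.0, 11.7, 13.1 and 12.5% of the UMIs of a luminal secretory cell in MG1 replicates 1 and 2 and MG2 replicates 1 and 2. In the other gland cells the medians were 9.04, 10.1, 8.56 and 7.79%. The secretory median was higher in 4 of 4 libraries, least so in MG1 replicate 2, and no test was made. Mitochondrial transcripts supplied 11.3, 7.76, 7.87 and 8.78% in secretory cells and 11.5, 9.20, 7.50 and 8.63% in other cells, with no common direction.

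A further 176 gland cells with Epcam held at least 4 UMIs of both the secretory and the hormone-sensing genes and passed neither gate. They numbered 40, 13, 54 and 69 in the 4 libraries, and their median depth was 3412, 7711, 4456 and 3953 UMIs against 3502, 5298, 2517 and 2471 UMIs in all cells with Epcam. These cells were deeper than the rest in 3 of the 4 libraries.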
